A study of Mus musculus with 6 samples.

Results

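The SOCS, CISH and PIAS genes were 10 inhibitors of cytokine signaling: *Socs1* to *Socs7*, *Cish*, *Pias1* and *Pias4*. They were picked by gene symbol, with earlier results of these data known, and *Pias2* and *Pias3* were left out. All 10 were found among the 55453 genes of the count table, and all 10 were among the 13680 genes with enough reads to test. The libraries were RNA-Seq of bone marrow-derived macrophages (BMDM), macrophages grown in culture from bone marrow cells. The PP2Ac KO group held 3 libraries from *LysMcre PP2Ac fl/fl* mice, in which *cre* driven by the Lysozyme 2 promoter removes exon 1 of *Ppp2ca*, the gene of a catalytic subunit of the phosphatase PP2A. The PP2Ac WT group held 3 libraries from C57BL/6 mice bought from a vendor, which carry neither *cre* nor floxed alleles, so that *cre*, colony and the deletion cannot be told apart. Both groups were taken as treated with the STING agonist cGAMP, as the study describes, because the labels give no treatment, and there were no untreated libraries. The study describes young mice of both sexes without assigning them to libraries, and the labels do not say whether a replicate is a mouse or a culture. The p-values therefore measure only the spread between these samples.

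Macrophages that sense DNA through STING secrete type I IFN, which returns to the IFN receptor and activates JAK kinases and STAT factors. SOCS proteins and CISH form a family of feedback inhibitors, each with an SH2 domain that binds phosphotyrosine and a SOCS box that recruits a ubiquitin ligase. *Socs1*, *Socs2*, *Socs3* and *Cish* are themselves STAT target genes, whereas *Socs4* to *Socs7* are better known for restraining growth factor and insulin receptors. PIAS proteins are SUMO ligases of the nucleus that bind STAT factors and other transcription factors, and they are not known as feedback genes.

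The targeted gene followed the labels, with 8279 to 10654 *Ppp2ca* reads per PP2Ac WT library and 33 to 47 per PP2Ac KO library. Between 35257156 and 47390899 reads per library were counted on genes, and expression is given as CPM, the counts divided by the TMM-scaled library size. All 6 macrophage markers listed, *Adgre1* and *Csf1r* among them, were expressed and 2 were called higher, with a summed level of 7286 to 7474 CPM in PP2Ac KO and 6162 to 6794 CPM in PP2Ac WT. The 4 fibroblast markers (*Col1a1*, *Col1a2*, *Col3a1* and *Dcn*) summed to 22.7 to 33.4 CPM in PP2Ac KO and 74.9 to 118 CPM in PP2Ac WT, and all 4 were called lower. Their part in the results that follow was not tested, and in bulk RNA fewer cells of a type and less RNA per cell cannot be told apart. Summed levels in PP2Ac KO and PP2Ac WT reached 0.212 and 0.0690 CPM for 5 T and NK cell markers, 1.34 and 0.584 CPM for 3 B cell markers, 0.939 and 0.906 CPM for 5 neutrophil markers, and 1.82 and 1.11 CPM for 4 dendritic cell markers. *Cd8a* and *Ly6g* had no read in any library.

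The promoters of *Socs1*, *Socs3* and *Cish* are shown because these genes had higher counts in PP2Ac KO BMDM and belong to the STAT targets of the family. Each runs from 250 bases before to 50 bases after a RefSeq start site (GRCm38.p6), 5′ to 3′ on the gene's strand. The *Socs3* and *Cish* windows lie within the gene bounds of the GENCODE annotation, so that annotated transcription also begins upstream of them. Capitals mark matches to a STAT site (GAS, TTCNNNGAA) or to the core of an IFN-stimulated response element (ISRE, GAAANNGAAA), searched on both strands.
*Socs1*, chr16:10785487-10785786, reverse strand: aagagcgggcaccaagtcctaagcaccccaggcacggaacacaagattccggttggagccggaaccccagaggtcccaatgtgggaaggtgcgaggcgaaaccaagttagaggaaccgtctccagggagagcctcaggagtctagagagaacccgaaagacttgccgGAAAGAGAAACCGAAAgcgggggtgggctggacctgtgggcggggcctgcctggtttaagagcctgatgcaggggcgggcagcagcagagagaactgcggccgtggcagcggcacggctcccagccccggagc
*Socs3*, chr11:117969317-117969616, reverse strand: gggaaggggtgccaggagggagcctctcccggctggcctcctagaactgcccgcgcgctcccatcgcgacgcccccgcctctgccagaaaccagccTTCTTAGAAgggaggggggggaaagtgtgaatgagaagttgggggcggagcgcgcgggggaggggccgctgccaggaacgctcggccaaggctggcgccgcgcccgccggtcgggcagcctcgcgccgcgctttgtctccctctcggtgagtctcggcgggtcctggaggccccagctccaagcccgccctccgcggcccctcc
*Cish*, chr9:107296409-107296708, forward strand: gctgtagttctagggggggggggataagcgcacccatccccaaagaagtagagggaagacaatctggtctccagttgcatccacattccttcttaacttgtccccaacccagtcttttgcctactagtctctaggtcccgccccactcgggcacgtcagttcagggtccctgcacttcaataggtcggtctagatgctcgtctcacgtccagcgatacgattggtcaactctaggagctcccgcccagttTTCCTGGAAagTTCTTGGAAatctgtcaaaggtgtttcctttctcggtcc

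The *Socs1* window held 2 overlapping ISRE matches, GAAAGAGAAACCGAAA, which begin 83 and 77 bases before the start site. A match to the ISRE core occurred in 3.44% of the 32851 promoters of this length, and 0.225% held 2 or more. The *Socs3* window held 1 GAS match, TTCTTAGAA, 154 bases before the start site. In the *Cish* window, 2 GAS matches, TTCCTGGAA and TTCTTGGAA, lay at bases 1 and 12 from the start site on. GAS matches occurred in 8.30% of promoters, and 0.457% held 2 or more. The windows available for *Socs4* and *Pias1*, and both windows for *Pias3*, a PIAS gene outside the 10, held no match to either pattern. The *Pias1* window also lies within the annotated gene. A STAT6-type pattern with 4 bases between the half-sites (TTCNNNNGAA), present in 6.95% of all promoters, had no match in any of these windows. Promoters of 5 of the 10 genes were available, and those of *Socs2*, *Socs5*, *Socs6*, *Socs7* and *Pias4* were not. The windows thus leave out *Socs7*, which was called higher, and *Socs2*, a STAT target that was not called. Whether matches go with the calls was not tested. The matches are matches of letters, without a measurement of binding.

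**Figure D1:**
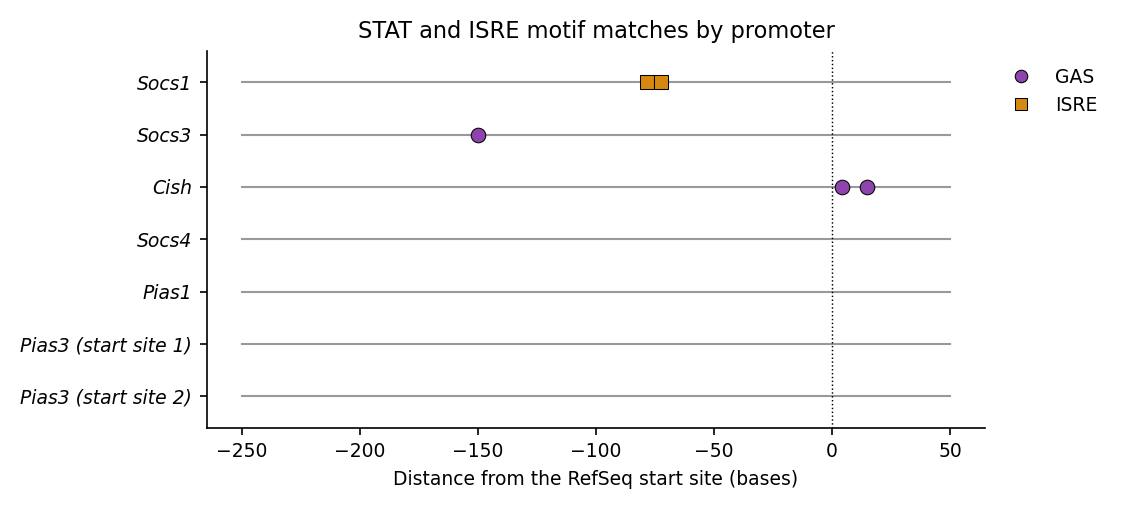
Each line is the window from 250 bases before to 50 bases after a RefSeq start site, with the distance from that site in bases on the horizontal axis, and symbols mark the centres of GAS and ISRE matches. Matches are seen in *Socs1* (2 ISRE), *Socs3* (1 GAS) and *Cish* (2 GAS) and in none of the 4 windows of *Socs4*, *Pias1* and *Pias3*. No window was available for the other 5 of the 10 genes, *Socs7* and *Socs2* among them.

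To ask whether the feedback inhibitors differed with the loss of PP2Ac, the genotypes were compared in a fit over all 13680 genes with edgeR's quasi-likelihood method. In PP2Ac KO BMDM, *Socs3*, *Cish*, *Socs1* and *Socs7* were higher, at 2.72, 2.08, 1.75 and 1.66 times the PP2Ac WT level. Thus 4 of the 10 genes were called higher (adjusted p under 0.05), where 18.1% of all genes tested were called higher and 19.0% lower. By edgeR, DESeq2 and limma-voom 0 of the 10 were called lower, and 1, *Socs5*, had an unadjusted p under 0.05 in that direction in edgeR. In a fit blocked by replicate number, which pairs same-numbered libraries, 5 were called higher and 1 lower, against 24.4% and 26.4% of all genes. The blocked fit added *Socs6* as higher and *Socs5* as lower. The libraries of the groups did not overlap in 6 of the 10 genes, the same 6, against 50.9% of all genes, so that a lack of overlap was common in these data. The median log2 fold change was 0.17 over the 10 genes and -0.02 over all genes tested.

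**Figure D2:**
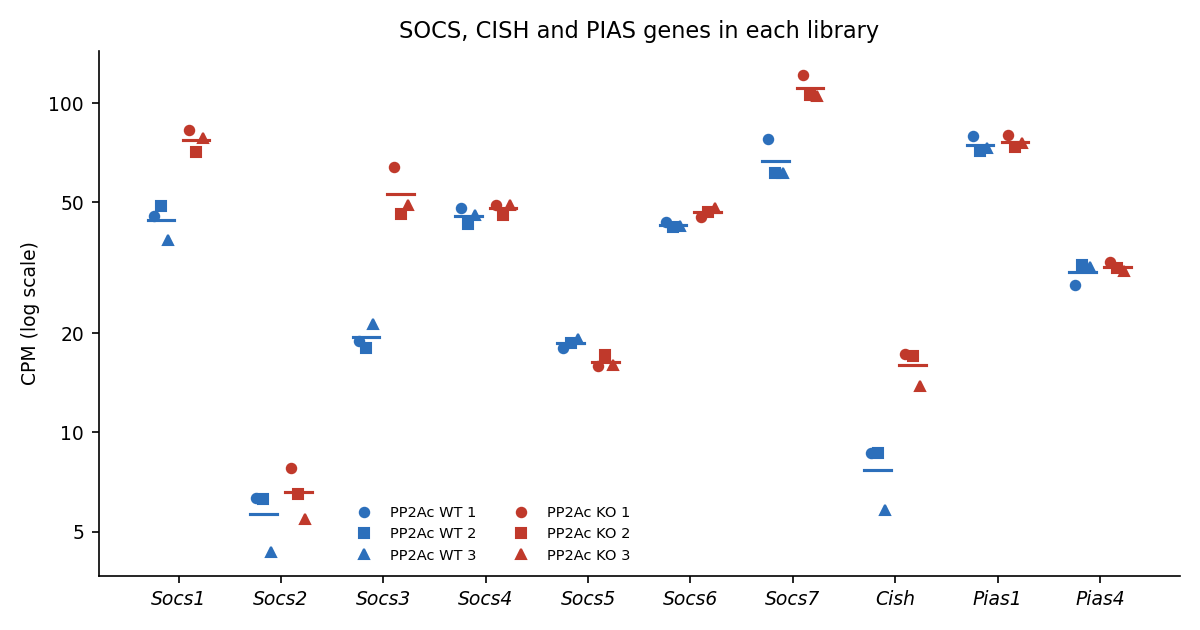
CPM of each gene on a log scale, with blue symbols for the 3 PP2Ac WT and red for the 3 PP2Ac KO libraries, a symbol shape for each replicate number and bars for group means. In *Socs1*, *Socs3*, *Socs7* and *Cish* all 3 PP2Ac KO libraries lie well above the PP2Ac WT libraries, while the groups overlap in *Socs2*, *Socs4*, *Pias1* and *Pias4*.

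*Socs3* (chr11:117966079-117970047, reverse strand), whose protein binds the shared IL-6 receptor chain gp130 and restrains STAT3, changed most. It was counted at 63.9, 45.9 and 49.0 CPM in PP2Ac KO replicates 1, 2 and 3 and at 19.0, 18.05 and 21.4 CPM in PP2Ac WT replicates 1, 2 and 3. Every PP2Ac KO library was above every PP2Ac WT library by more than the range within either group, and PP2Ac KO replicate 1 was the highest. The group means were 52.9 ± 9.60 and 19.5 ± 1.72 CPM (SD, n = 3), and the difference on the log2 scale was 1.44 ± 0.12 (SE; edgeR, adjusted p = 8.21e-05). A change at least as large was seen in 3.38% of the genes tested.

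*Socs1* (chr16:10782240-10785536, reverse strand) encodes the inhibitor that blocks JAK kinase activity directly and limits responses to type I and type II IFN. Its values were 82.8, 71.1 and 78.5 CPM in PP2Ac KO replicates 1 to 3, and 45.4, 48.8 and 38.4 CPM in PP2Ac WT. The lowest PP2Ac KO library thus stood above the highest PP2Ac WT library. With means of 77.4 ± 5.90 and 44.2 ± 5.33 CPM (SD, n = 3), the log2 difference was 0.81 ± 0.09 (SE; edgeR, adjusted p = 2.85e-04). A change of at least this size was seen in 12.3% of the genes tested.

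*Cish* (chr9:107296026-107302784, forward strand), which is induced by STAT5 and restrains receptors that signal through STAT5, had 17.3, 17.1 and 13.9 CPM in PP2Ac KO and 8.66, 8.69 and 5.80 CPM in PP2Ac WT. Replicate 3 was the lowest library of both groups, and the groups did not overlap. The means were 16.1 ± 1.90 and 7.71 ± 1.66 CPM (SD, n = 3), and PP2Ac KO was higher by 1.05 ± 0.15 on the log2 scale (SE; edgeR, adjusted p = 8.12e-04). Positions are those of GENCODE M21 on GRCm38. Exons of *Cish* share 261 and 479 bases with the opposite-strand genes *Gm17040* and *Gm17041*, which had at most 7 reads and 1 read per library, and no other of the 10 genes shared exon bases with another gene.

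*Socs7* (chr11:97362551-97398542, forward strand) is a larger family member that has been linked to insulin receptor signaling. It had 122, 106 and 105 CPM with PP2Ac KO and 77.6, 61.6 and 61.2 CPM with PP2Ac WT. Replicate 1 was the highest in both genotypes, and no PP2Ac WT library reached the lowest PP2Ac KO library. Means of 111 ± 9.52 and 66.8 ± 9.35 CPM (SD, n = 3) gave a log2 difference of 0.73 ± 0.10 (SE; edgeR, adjusted p = 6.72e-04). A difference of this size or larger was found for 14.5% of the genes tested.

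At the thresholds the study used for upregulated genes (log2 fold change over 1 and FDR under 0.01), *Socs3* and *Cish* were called, 2 of the 10 genes, against 3.36% of all genes. At the mirrored thresholds 0 of the 10 were called lower in edgeR, DESeq2 or limma-voom, against 2.99% of all genes. The estimate for *Cish* lay close to the limit. It was 0.89 without PP2Ac WT replicate 3, 0.99 without PP2Ac KO replicate 1 and 0.99 with upper-quartile scaling, which left 1 gene past the thresholds in each case.

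*Socs5* and *Socs6* gave small differences of opposite sign. *Socs5*, which has been linked to IL-4 and epidermal growth factor receptor signaling, had 15.9, 17.2 and 16.03 CPM in PP2Ac KO and 18.04, 18.7 and 19.2 CPM in PP2Ac WT. Each PP2Ac KO library was below each PP2Ac WT library. The log2 fold change was -0.19 (95% interval -0.34 to -0.03), with an adjusted p of 0.0567 from edgeR, and 0.0194 with the replicate block. Without PP2Ac WT replicate 1 it was called in edgeR without the block (adjusted p = 0.0492). *Socs6*, a partner of receptor tyrosine kinases such as KIT, had 45.2, 46.6 and 48.1 CPM in PP2Ac KO and 43.5, 42.0 and 42.5 CPM in PP2Ac WT, again without overlap. Its log2 fold change was 0.13 (95% interval 0.00 to 0.25), with an adjusted p of 0.102 from edgeR, and 0.0348 with the block.

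The other 4 genes were not called in either fit, and their groups overlapped. *Socs2*, which limits growth hormone signaling, was the lowest of the 10 per length, with 5.46 to 7.78 CPM in PP2Ac KO and 4.34 to 6.32 CPM in PP2Ac WT. Its log2 fold change of 0.22 had the widest interval (95% interval -0.17 to 0.61, adjusted p = 0.355 from edgeR). It was 0.07 without PP2Ac KO replicate 1 or PP2Ac WT replicate 3 and 0.35 without PP2Ac KO replicate 3. *Socs4*, a close relative of *Socs5*, had 45.6 to 49.2 CPM in PP2Ac KO and 42.8 to 47.9 CPM in PP2Ac WT. Its difference of 0.07 on the log2 scale had a 95% interval of -0.07 to 0.22 (adjusted p = 0.404 from edgeR).

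The PIAS genes had the smallest differences of the 10. *Pias1*, which encodes a SUMO ligase, had 73.3 to 79.9 CPM in PP2Ac KO and 71.7 to 79.4 CPM in PP2Ac WT. Its log2 fold change was 0.03 (95% interval -0.11 to 0.18, adjusted p = 0.724 from edgeR), and its sign turned with upper-quartile scaling (-0.03) and without PP2Ac KO replicate 1 (-0.0071). *Pias4* had 31.0 to 32.9 CPM in PP2Ac KO and 28.1 to 32.3 CPM in PP2Ac WT. Its log2 fold change was 0.05 (95% interval -0.10 to 0.21, adjusted p = 0.578 from edgeR), and its sign turned under that scaling (-0.01) and without PP2Ac WT replicate 1 (-0.0044). Of the PIAS genes outside the 10, *Pias3*, whose protein binds STAT3, was lower by 0.32 on the log2 scale (21.9 ± 1.63 CPM in PP2Ac WT and 17.5 ± 1.18 CPM in PP2Ac KO, SD, n = 3; adjusted p = 0.0124 from edgeR). *Pias2* had a log2 fold change of -0.02 (adjusted p = 0.800 from edgeR).

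**Figure D3:**
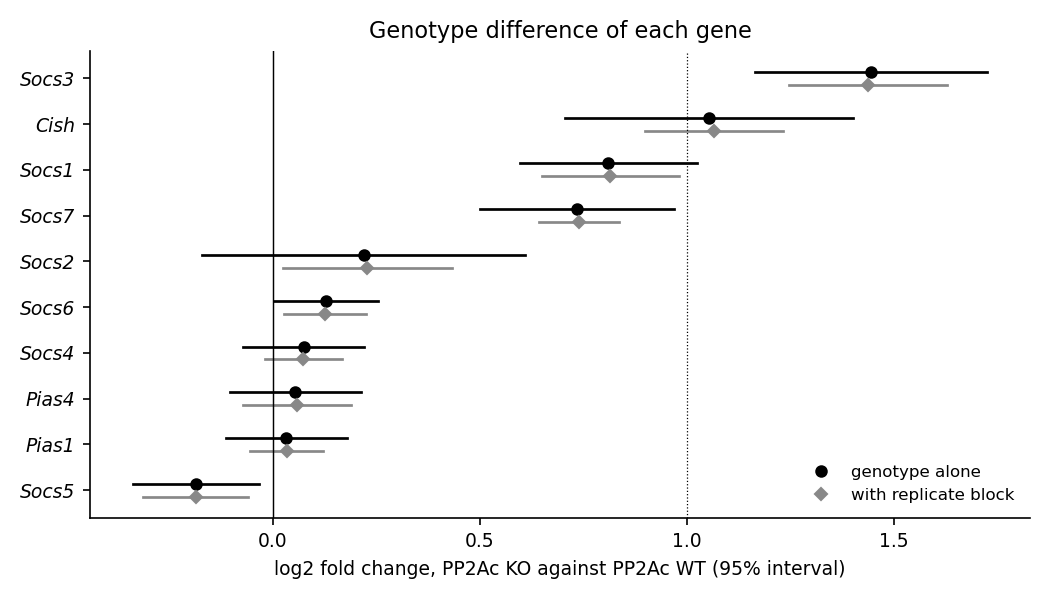
Log2 fold change of PP2Ac KO against PP2Ac WT on the horizontal axis for each gene, with 95% intervals, in the fit on genotype alone (black circles) and blocked by replicate number (grey diamonds). The dotted line is at 1, and the intervals of *Socs3*, *Cish*, *Socs1* and *Socs7* lie above 0.5, while those of *Pias1* and *Pias4* include 0 in both fits.

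Levels of different genes were compared only per length, as CPM per kilobase of exon. In PP2Ac WT BMDM *Socs1* was first, at 15.2 ± 1.83 CPM per kilobase (SD, n = 3). It was followed by *Pias1* (10.9 ± 0.602), *Socs7* (9.19 ± 1.29), *Pias4* (8.30 ± 0.607), *Socs3* (6.74 ± 0.596), *Socs4* (6.61 ± 0.375), *Socs6* (3.76 ± 0.0683), *Socs5* (2.90 ± 0.0895), *Cish* (1.20 ± 0.259) and *Socs2* (0.592 ± 0.119). In this order the libraries of *Pias1* and *Socs7*, of *Socs7* and *Pias4*, and of *Socs3* and *Socs4* overlapped, and other neighbours did not. In PP2Ac KO BMDM *Socs1* was again first, at 26.6 ± 2.03 CPM per kilobase, and *Socs3* had moved from position 5 to position 2, at 18.3 ± 3.32 CPM per kilobase, overlapping *Socs7* at 15.3 ± 1.31. *Pias1* (11.2 ± 0.483) and *Pias4* (8.62 ± 0.266) came next, and *Socs4* to *Socs2* followed in the same order as in PP2Ac WT, with *Socs5* and *Cish* overlapping. With the length of the longest transcript instead of all exons, *Socs6* stood above *Socs4* in both genotypes, and *Pias4* stood above *Socs7* in PP2Ac WT. *Socs3* stayed at positions 5 and 2. *Socs1* stayed first, but with this length its libraries overlapped those of *Pias1* in PP2Ac WT and those of *Socs3* in PP2Ac KO.

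Summed over *Socs1* to *Socs7* and *Cish*, the level per length was 84.4, 71.6 and 75.0 CPM per kilobase with PP2Ac KO and 48.4, 46.3 and 43.7 with PP2Ac WT, a ratio of the means of 1.67. The makeup of this sum is given as a description, without a test. *Socs3* made up 26.2, 22.2 and 22.6% of it in PP2Ac KO and 13.6, 13.5 and 16.9% in PP2Ac WT. The share of *Socs1*, the largest, was 34.6 ± 1.20% and 32.8 ± 3.09% (SD, n = 3), and its libraries overlapped between groups. *Socs7* took 19.8 ± 0.502% in PP2Ac KO and 19.8 ± 1.95% in PP2Ac WT. *Socs4* (8.43 to 9.52% and 13.4 to 15.2%), *Socs6* (4.71 to 5.73% and 7.91 to 8.55%) and *Socs5* (2.94 to 3.75% and 5.80 to 6.83%) had smaller shares in every PP2Ac KO library than in any PP2Ac WT library. A share falls when the rest of the sum rises. Mean levels in PP2Ac KO and PP2Ac WT were 47.9 and 45.5 CPM for *Socs4*, 46.6 and 42.7 for *Socs6*, and 16.4 and 18.6 for *Socs5*.

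**Figure D4:**
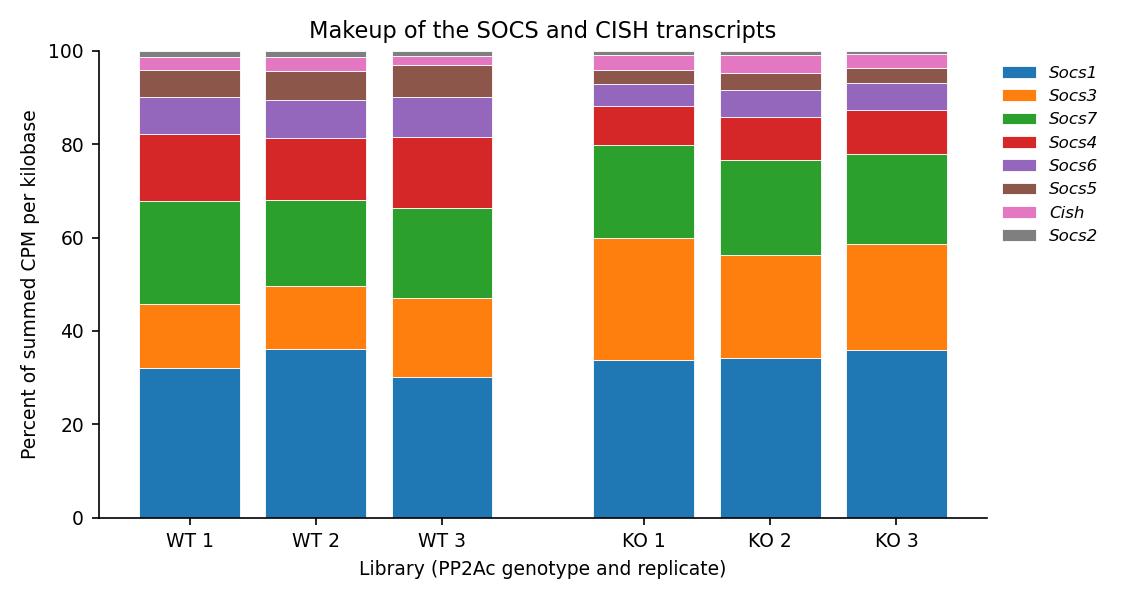
Percent of the summed CPM per kilobase of the 8 SOCS and CISH genes taken by each gene in each library. The *Socs3* segment is larger in the 3 PP2Ac KO libraries (22.2 to 26.2%) than in the 3 PP2Ac WT libraries (13.5 to 16.9%), and *Socs1* is the largest segment in all 6.

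Ratios of genes within a library do not depend on library scaling, and 6 were tested with a 2-sided exact permutation test over the libraries, which cannot give a p under 0.1 for 3 against 3. The log2 ratio of *Socs1* to *Socs3* reads was 0.37, 0.63 and 0.68 in PP2Ac KO and 1.25, 1.44 and 0.84 in PP2Ac WT, without overlap. It was thus lower by 0.62 in PP2Ac KO (exact p = 0.1, and 0.15 adjusted over the 6 ratios). The ratio of *Socs3* to *Stat3*, the factor its protein restrains, was higher by 0.79 (exact p = 0.1, adjusted 0.15). Relative to *Usp18*, an IFN-induced inhibitor of the type I IFN receptor, *Socs1* was lower by 0.47 (exact p = 0.1, adjusted 0.15). These log2 ratios were -3.35, -3.46 and -3.14 in PP2Ac KO and -3.13, -2.66 and -2.74 in PP2Ac WT, so that the groups nearly met. *Usp18* itself rose from 321 ± 71.3 to 774 ± 76.0 CPM (SD, n = 3). *Cish* to *Socs2*, both STAT5 targets, was higher by 0.85 (exact p = 0.1, adjusted 0.15), with PP2Ac WT ratios of 0.45, 0.47 and 0.42 and PP2Ac KO ratios of 1.15, 1.39 and 1.34. *Pias1* to *Pias4* differed by -0.02 (exact p = 1, adjusted 1), and the sign turned without PP2Ac WT replicate 1 (0.08) and without PP2Ac KO replicate 2 (0.0021).

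Other genes of the pathway were counted from lists, and of the 105 that could be tested 54 were higher and 7 lower, and their median was 0.30 on the log2 scale. Without PP2Ac KO replicate 1, 4 were lower. With every library in the fit, 18.1% of all genes tested were called higher and 19.0% lower. Reads of close paralogs and pseudogenes could have been divided in counting. Of the 18 cytokines listed that signal through JAK and STAT, 9 were tested and 8 of these were higher (median log2 fold change 1.01). *Il10*, an inducer of *Socs3* through STAT3, rose by 1.73 on the log2 scale, *Il27* by 1.71, *Ifnb1* by 1.32 and *Il6*, the ligand upstream of gp130, by 1.18. With the replicate block 1 cytokine, *Lif*, was lower (adjusted p = 0.00442 from edgeR).

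Among the receptors on which SOCS proteins act, 5 of 22 were higher and 3 lower (median 0.09), with 9 and 4 in the blocked fit and 8 and 3 by DESeq2. Over all genes the shares were 18.1% higher and 19.0% lower, or 24.4% and 26.4% in the blocked fit, so that without the block the receptors lay near the background. *Il2rg*, the common γ chain, rose by 1.21 and *Il13ra1*, a chain of receptors for IL-4 and IL-13, by 1.14. *Osmr*, the receptor chain for oncostatin M, fell by 1.59 from 1.59 to 0.517 CPM, and *Igf1r*, a growth factor receptor, fell by 0.71. Of the JAK kinases and STAT factors 7 of 11 were higher and the other 4 were not called (median 0.48), while 10 were higher with the block. *Jak2* rose by 1.18, *Tyk2* by 0.71, *Stat2* by 0.65 and *Stat3* by 0.63, whereas *Stat5a* and *Stat6* had log2 fold changes of -0.06 and 0.11 (adjusted p = 0.492 and 0.173 from edgeR). With the block *Stat6* was called higher (adjusted p = 0.0417 from edgeR).

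Genes described as STAT targets were listed by factor, without the direction of their regulation. A gene can respond to more than 1 factor, so that the counts do not measure single factors. Of 9 STAT3 targets 7 were higher and 1 lower (median 0.74). *Junb*, *Il1rn* and *Bcl3* had log2 fold changes of 1.34, 1.26 and 1.09, and *Hp*, an acute phase gene, of -1.03. Of 6 STAT5 targets 5 were higher (median 0.62), with values of 2.28 for *Ccnd2* and 1.03 for *Pim1*. Of 8 STAT6 targets 4 had enough reads to test, and 1 of these, *Chil3*, was higher (1.46, with at most 0.857 CPM as a group mean). Over all genes tested 18.1% were called higher and 19.0% lower, and the median was -0.02.

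Among other inhibitors of JAK and STAT signaling 3 of 8 were higher and 1 lower (median 0.05), and with the block 4 and 2. These lists of inhibitors, ligase genes and SUMO genes are small, and their counts stand against the same 18.1% higher and 19.0% lower over all genes. *Usp18* rose by 1.27, the phosphatase genes *Ptpn2* and *Ptpn6* rose by 0.59 and 0.35, and *Cblb*, a ubiquitin ligase, fell by 0.39. The 6 genes of the ligase that the SOCS box recruits held 1 call, *Ube2f*, a conjugating enzyme for the NEDD8 step, at 0.21 (median 0.11), and 3 calls with the block. Of 15 genes for SUMO conjugation and removal, the pathway in which PIAS proteins act, 4 were higher and 1 lower (median 0.07). The higher genes included *Ranbp2*, which encodes another SUMO ligase, and the SUMO protease gene *Senp1*, at 0.54 and 0.41. The lower gene was *Sae1*, a subunit of the SUMO activating enzyme, at -0.27.

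**Figure D5:**
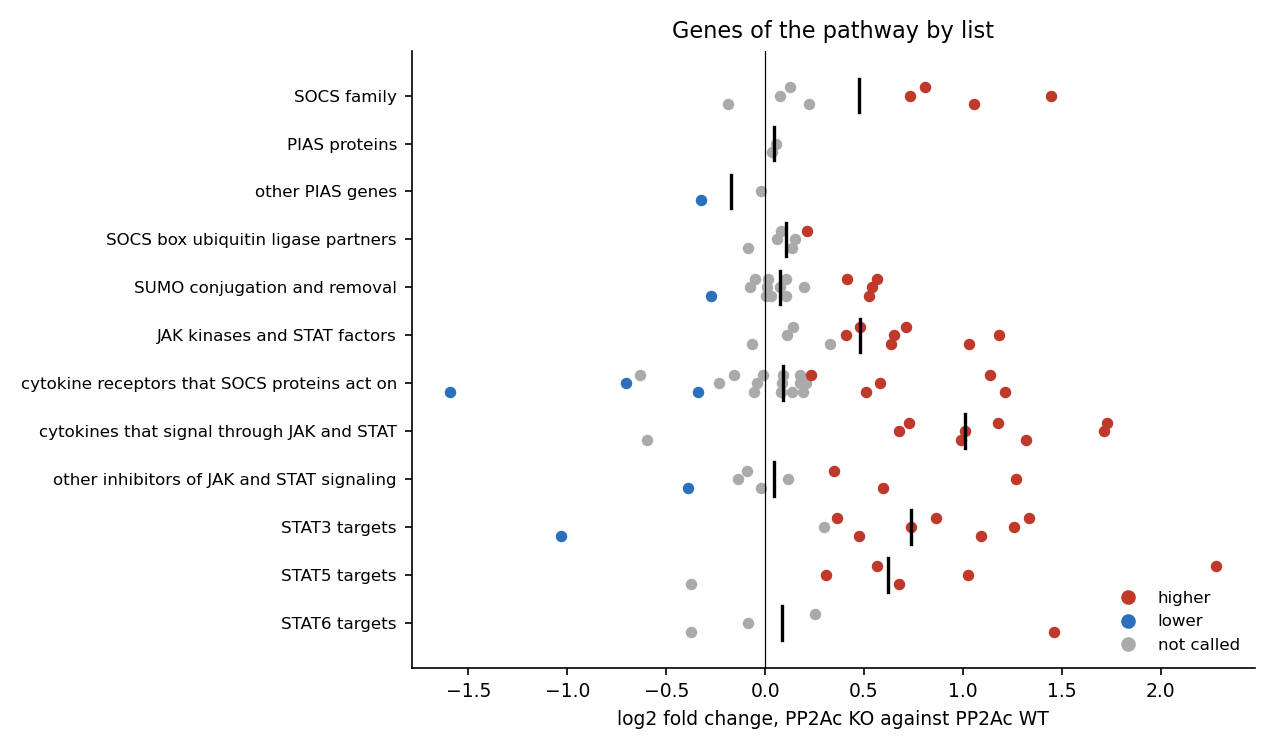
Log2 fold change of PP2Ac KO against PP2Ac WT on the horizontal axis for every tested gene of the lists shown, coloured by its call (adjusted p under 0.05), with a bar at the median of the list. The cytokines are nearly all red (8 of 9, median 1.01), and the SUMO list is mostly grey (10 of 15 not called).

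The genes whose log2 CPM ran most like those of the called members over the 6 libraries were *Gnb1*, *Fbxo4* and *Capn5* for *Socs1* (Pearson r = 0.999, 0.996 and 0.995), and *Ralgds*, *Clec5a* and *Nupr1* for *Socs3* (0.997, 0.997 and 0.996). For *Socs7* they included *Rab21* and *Mtmr6* (0.9998 and 0.9995), and for *Cish* *Dusp5*, *Fgd2* and *H2-Q7* (0.999, 0.999 and 0.999). These points share the genotype step and the library scaling, and between 570 and 1414 of the 11444 genes compared had r over 0.95 with one of these members, so that close likeness was common.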

How the data were processed

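RNA-Seq of BMDM was analysed for 3 PP2Ac KO and 3 PP2Ac WT libraries, grouped by their titles. Poly(A) RNA was sequenced from both ends after a strand-specific preparation. The authors deposited whole-number counts per gene symbol for mm10, without normalization. The submitters' processing notes name fastp 0.20.0, kallisto 0.46.1, STAR 2.7.1a, HTSeq 0.11.2, edgeR 3.34.0 and limma 3.48.3 without their roles. Annotation release and strand setting are not given in the sources used here.

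Genes were filtered with filterByExpr (minimum count 10, minimum total 15), TMM-scaled and tested in R 4.3.3 with edgeR 4.0.16 (glmQLFit, glmQLFTest) for genotype, with Benjamini-Hochberg adjustment over 13680 genes. Depth ran from 35257156 to 47390899 counts, at which 3 counts equal 0.0604 to 0.0908 CPM, and this floor covers counting error only. Within groups, chi-square per degree of freedom between libraries was 9.28 to 45.5, so that no library was taken as a copy of another. Alternatives were RLE and upper-quartile scaling, other count filters, the replicate block, DESeq2 1.42.0, limma-voom (limma 3.58.1) and leaving out each library. The pairing comes from replicate numbers in the labels. Deviations from group means correlated over genes at 0.446, 0.275 and 0.459 for same-numbered pairs and at -0.370 to -0.0990 for others. Centring on group means forces the other pairs to be negative on balance once the same-numbered pairs are positive. What a number marks is not stated. The fits were tested on simulated data.

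Exon lengths and gene positions are from GENCODE M21 (GRCm38), in which 98.4% of the symbols were found, and promoters are from RefSeq (GRCm38.p6). The members and lists were chosen with earlier results of these data known. The genes named are the 10 members, up to 4 called genes per list with the largest change, the genes of the ratios, and 3 genes most like each called member among those with a mean of at least 1 CPM (r over log2 of CPM + 0.5). *Lif*, *Stat5a*, *Stat6* and *Sae1* were named after their values were seen. Results that need certain withheld items are not reported here.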

Additional observations from a re-analysis of the deposited data

How the results depend on the processing

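*Socs1*, *Socs3*, *Socs7* and *Cish* were called higher under each of 13 alternatives, with log2 fold changes of 0.72 to 0.89, 1.28 to 1.54, 0.66 to 0.86 and 0.89 to 1.15. Of 130 alternative values for the 10 genes, 122 kept direction and side of the threshold, 4 passed it newly and 4 reversed. The number called lower was 1 with upper-quartile scaling and 1 with the replicate block, and it ran from 0 to 1 when a library was left out. The gene was *Socs5*, with adjusted p = 0.0262, 0.0194 and, without PP2Ac WT replicate 1, 0.0492. The block also called *Socs6* (adjusted p = 0.0348) and changed no other call among the 10. The number past the study's thresholds was 1 with upper-quartile scaling and 1 to 2 with a library left out. Other pathway genes called lower numbered 4 to 7 with a library left out. The log2 fold change of *Pias1* was -0.0303 with upper-quartile scaling and -0.0071 to 0.0803 with a library left out, and that of *Pias4* was -0.0103 and -0.0044 to 0.0936. With a library left out, *Socs2* ran from 0.07 to 0.35 on the log2 scale and the *Pias1* to *Pias4* ratio from -0.0878 to 0.0839. The cause of these changes was not tested.

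With the longest transcript as length, shares of the SOCS and CISH sum in PP2Ac KO and PP2Ac WT became 30.8% and 28.6% for *Socs1*, 1.79% and 2.50% for *Socs2*, 8.09% and 12.5% for *Socs4*, 4.11% and 7.59% for *Socs5*, 8.99% and 13.3% for *Socs6*, and 3.97% and 3.08% for *Cish*, and 18.3% in PP2Ac KO for *Socs7*. The lengths used differ by construction. With 3 libraries per group a ratio cannot pass an exact test, and a mouse, culture or batch behind a replicate number cannot be told apart. The differences of *Socs4*, *Pias1* and *Pias4* were not called in either fit, and the smallest difference that could be detected was not measured.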
